A study of Mus musculus with 56 samples.

Results

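Cytochrome P450 enzymes of families 1 to 3 were followed in mouse liver after dosing with LNA gapmers, short antisense oligonucleotides whose DNA core is flanked by locked nucleic acid bases. The members were the probe sets annotated with exactly 1 gene symbol of the Cyp1, Cyp2 or Cyp3 form, leaving out pseudogenes. These were 50 of the 45101 probe sets and stood for 42 of 18194 genes, of which 3 were in family 1, 34 in family 2 and 5 in family 3. All livers came from male CD-1 mice that were 6 to 8 weeks old when dosing began, and each mouse had its own array.

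The single-dose study held mice given 25 mg/kg of HTS-3, a severely toxic sequence, and killed after 8 h (3 mice) or 16 h (4 mice). It also held mice given 25 mg/kg of the toxic sequence TS-2 and killed after 8 h (4), 16 h (3) or 72 h (4). Further mice were given 25 mg/kg of the non-toxic sequence NTS-1 and killed after 8 h (3), 16 h (4) or 72 h (3). Vehicle mice were given buffered saline (DPBS) and killed at the same times (3 each). The 2-week study held 5 mice given TS-2 and 4 given NTS-1, both at 25 mg/kg, and 10 given vehicle. They were dosed under the skin on days 1, 4, 8 and 11 and killed on day 14. No mouse of the HTS-3 group was left at 72 h, and per the labels' protocols the single-dose livers were those of each group with the most marked minor hepatic hypertrophy, so they are not a random draw of the dosed mice. The third HTS-3 mouse of the 8 h group is called an 8 h mouse in its title and a 16 h mouse in its description, and it was kept at 8 h.

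P450 enzymes are haem proteins of the endoplasmic reticulum that add oxygen to foreign compounds, steroids, fatty acids and bile acids, with electrons from the reductase Por. In hepatocytes the family 1 genes are switched on by the receptor AhR, and many Cyp2b, Cyp2c and Cyp3a genes by the receptors CAR (Nr1i3) and PXR (Nr1i2), which respond to drugs such as phenobarbital. Several mouse P450 genes differ between the sexes, and several are lower in livers with inflammation.

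Deposited intensities began at 4.56 on each single-dose array and at 6.10 to 6.92 on the 2-week arrays, so levels are not compared between the 2 studies. Genes were tested where 3 or more arrays of the study had an intensity of 32 or above. Of the 42 members, 31 passed this filter in the single-dose study and 37 in the 2-week study. The 11 and 5 members that did not pass stayed under 32 on every array, and Cyp2b19, Cyp2c65, Cyp2d40, Cyp2j13 and Cyp3a16 were among them in both. Cyp1a1, Cyp1b1, Cyp2b13, Cyp2d34, Cyp2j11 and Cyp2s1 were left out of the single-dose tests alone. Hepatocyte marker transcripts summed to 277169 to 284029 in the 2-week TS-2 livers and to 270523 to 286898 in the vehicle livers, and 12 of the 14 listed hepatocyte genes were on the array, none of them under 32 on all arrays of either group. Of the 12, 2 were higher (Apob, 0.30, and Ahsg, 0.21) and 1 lower (Apoa1, -0.15) in TS-2 livers. Of all genes tested, 23.8% were called higher and 15.1% lower there.

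The start regions of 6 genes with a sequence are shown as examples of members called in each direction after TS-2 and of 1 called after HTS-3. They cover 250 bases before to 50 after the annotated start, from RefSeq on GRCm38.p6, where 35 of the 42 members had such a sequence. For Cyp2c38 and Cyp2c55 the start used lies inside the gene span given for the chromosome order, so positions count from the start of the window's annotation. Capitals mark TATAAA, TTGCNNAA (a C/EBP motif) and CAAAGTCCA (an HNF4 motif) on either strand; none of the marked matches overlapped another. Cyp2b10 (chr7:25897408-25897707, plus strand), Cyp2c50 (chr19:40089429-40089728, plus) and Cyp2c37 (chr19:39992174-39992473, plus) fell after TS-2 for 2 weeks. Cyp2c38 (chr19:39463026-39463325, minus) and Cyp2c55 (chr19:39006769-39007068, plus) rose in the same livers, and Cyp2c70 (chr19:40187237-40187536, minus) fell after HTS-3.
Cyp2b10: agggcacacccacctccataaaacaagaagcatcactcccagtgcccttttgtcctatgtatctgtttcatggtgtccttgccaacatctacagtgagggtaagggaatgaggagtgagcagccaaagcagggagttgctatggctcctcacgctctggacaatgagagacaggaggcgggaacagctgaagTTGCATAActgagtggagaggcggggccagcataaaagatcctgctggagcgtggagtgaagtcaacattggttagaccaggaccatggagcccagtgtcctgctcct
Cyp2c50: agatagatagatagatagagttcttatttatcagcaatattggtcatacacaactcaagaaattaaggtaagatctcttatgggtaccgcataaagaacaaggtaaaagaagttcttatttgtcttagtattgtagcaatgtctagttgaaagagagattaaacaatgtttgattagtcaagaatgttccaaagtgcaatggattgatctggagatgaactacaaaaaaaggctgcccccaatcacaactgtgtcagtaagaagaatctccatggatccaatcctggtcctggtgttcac
Cyp2c37: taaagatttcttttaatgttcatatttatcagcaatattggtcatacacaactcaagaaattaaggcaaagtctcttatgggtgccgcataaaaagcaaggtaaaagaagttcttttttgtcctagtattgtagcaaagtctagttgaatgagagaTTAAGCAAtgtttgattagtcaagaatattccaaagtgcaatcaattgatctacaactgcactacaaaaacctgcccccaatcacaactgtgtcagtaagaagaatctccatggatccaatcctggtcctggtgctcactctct
Cyp2c38: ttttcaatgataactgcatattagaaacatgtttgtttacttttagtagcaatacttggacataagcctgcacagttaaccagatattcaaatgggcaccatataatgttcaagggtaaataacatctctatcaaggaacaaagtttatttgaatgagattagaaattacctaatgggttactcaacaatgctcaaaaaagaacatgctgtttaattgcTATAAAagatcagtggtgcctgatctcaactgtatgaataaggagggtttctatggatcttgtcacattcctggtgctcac
Cyp2c55: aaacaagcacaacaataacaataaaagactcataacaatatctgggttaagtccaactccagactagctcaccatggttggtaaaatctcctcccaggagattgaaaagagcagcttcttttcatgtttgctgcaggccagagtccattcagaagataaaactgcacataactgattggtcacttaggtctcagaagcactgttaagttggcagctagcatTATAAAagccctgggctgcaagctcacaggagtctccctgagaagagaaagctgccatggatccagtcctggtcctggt
Cyp2c70: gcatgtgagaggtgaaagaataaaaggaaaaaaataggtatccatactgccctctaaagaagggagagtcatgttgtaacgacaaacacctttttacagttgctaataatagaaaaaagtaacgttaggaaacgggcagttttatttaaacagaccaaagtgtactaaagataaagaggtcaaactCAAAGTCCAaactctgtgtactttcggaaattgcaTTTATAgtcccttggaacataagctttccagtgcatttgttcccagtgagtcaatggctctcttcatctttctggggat

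The Cyp2c50 and Cyp2c37 start regions were identical at 86.6% of 305 aligned positions, the closest pair among these 6, and neighbouring members this alike may also share hybridisation, which was not tested. TATAAA stood 31 bases before the start of Cyp2c38 and 29 before that of Cyp2c55. On the other strand it stood 29 before that of Cyp2c70, and it was absent from the windows of Cyp2b10, Cyp2c50 and Cyp2c37. Among members called after TS-2 for 2 weeks, 5 of 13 start regions of those lower and 3 of 4 of those higher held TATAAA. These are counts of start regions, and a gene can have more than 1. The 4 came from Cyp2c38, Cyp2c39 and Cyp2c55, each with TATAAA in a start region, since Cyp2d22 had no such sequence. The relation of TATAAA to direction was not tested. Over all members 18 of 38 start regions held TATAAA (47.4%), against 13.6% of the 32851 start regions of the same length in the table. CAAAGTCCA was in 5 of the 38 (those of Cyp2c65, Cyp2c68, Cyp2c70, Cyp3a11 and Cyp3a16), a share of 13.2% against 0.475% of all start regions. TTGCNNAA was in 8 of the 38 (21.1% against 10.8%), among them those of all 4 Cyp2b genes. The other letters searched on both strands were AGGTCA (a nuclear receptor half-site, 34.2% of member start regions against 16.3% of all), GCGTG (the AhR core, 21.1% against 32.4%), GTTAAT (an HNF1 half-site, 5.26% against 7.10%) and TGTTTAC (an HNF3 core, 18.4% against 3.65%). These are counts of letters and show no binding.

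The 2-week comparison of TS-2 with vehicle asks what repeated dosing with a toxic gapmer did to these enzymes. Of the 37 members tested, 19 passed (limma, adjusted p under 0.05), 15 of them lower and 4 higher in TS-2 livers. The share called, 51.4%, stood beside 38.9% of all 13812 genes tested. The directions differed from those of all genes: 40.5% of members were called lower against 15.1% of all genes, and 10.8% of members were called higher against 23.8% of all genes. The median change of the members was -0.19 on the log2 scale, against -0.00 over all genes. For 6 members the TS-2 and vehicle mice did not overlap, beside 11.9% of all genes. In bulk liver, fewer cells of a type and less RNA per cell cannot be told apart.

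**Figure D1:**
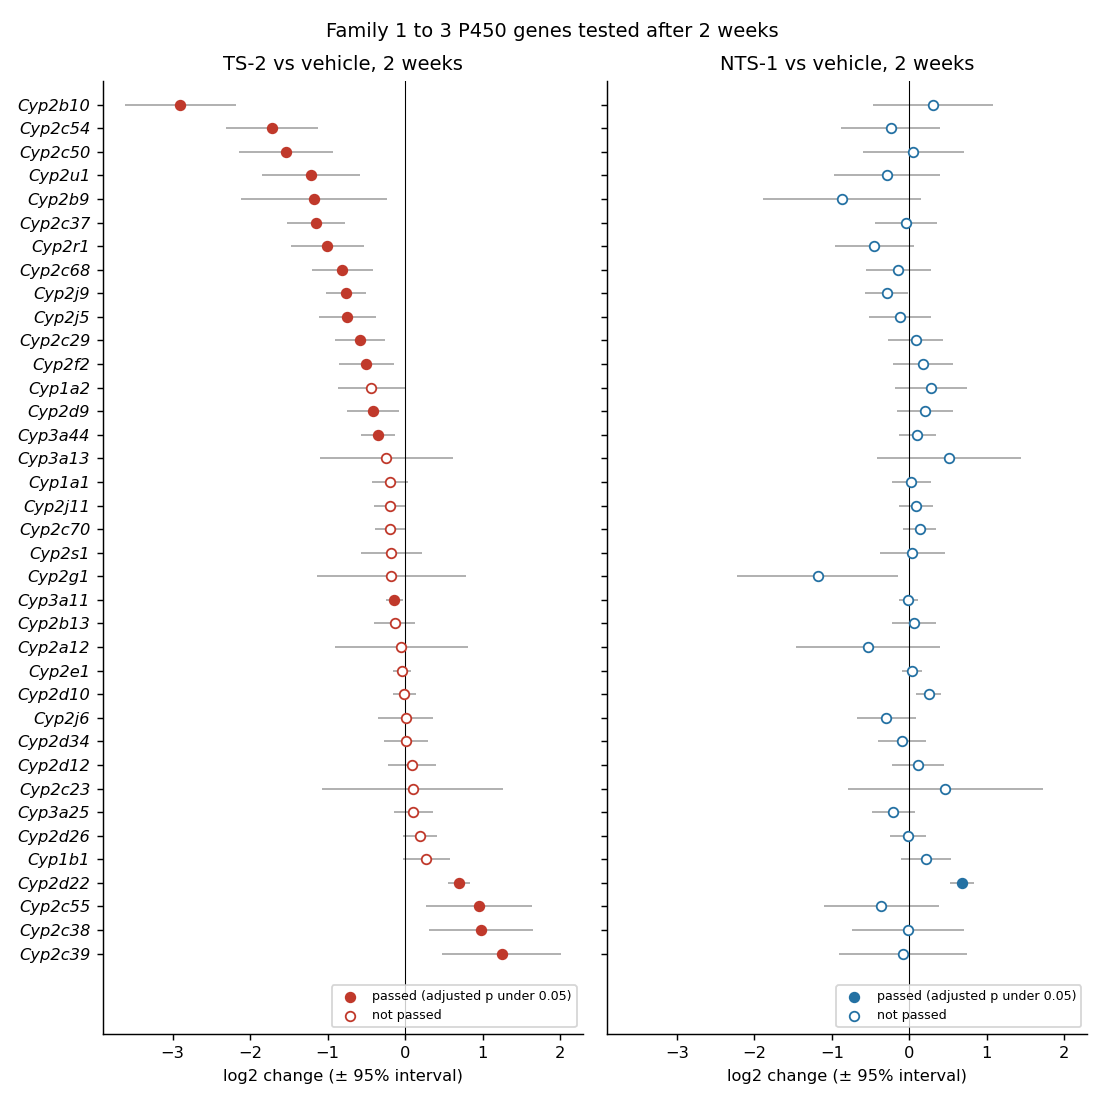
Log2 change of each of the 37 members tested after 2 weeks, for TS-2 (left) and NTS-1 (right) against the same 10 vehicle mice, with 95% intervals; filled points passed at an adjusted p under 0.05. TS-2 has 15 filled points left of 0 and 4 right of it, and NTS-1 has 1, Cyp2d22; Cyp2c37, Cyp3a44 and Cyp2b13 were under 32 in all TS-2 mice and Cyp2g1 in all NTS-1 mice, so their sizes are uncertain.

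Cyp2b10, the best known phenobarbital-inducible P450 of the mouse, fell most. Its intensities in the 5 TS-2 mice were 51.6, 28.7, 30.9, 65.1 and 107, against a lowest of 176, a median of 350 and a highest of 800 in the 10 vehicle mice. Every TS-2 mouse lay below every vehicle mouse, and below the 4 NTS-1 mice at 271, 740, 515 and 444. The fall was 7.46-fold (log2 change -2.90 ± 0.35, SE, adjusted p = 4.41e-06). All 3 probe sets of the gene fell, by log2 changes of -2.90, -2.73 and -1.89. Its neighbour Cyp2b9, a female-predominant gene, was at 65.9, 60.6, 30.1, 34.7 and 52.4 in TS-2 mice, against 49.4 to 368 with a median of 78.9 in vehicle mice. Those groups overlapped, the change was -1.17 ± 0.45, and the call (adjusted p = 0.0452) was lost without vehicle mouse 1, 2, 7, 8 or 10 or without TS-2 mouse 2, 3, 4 or 5. The third Cyp2b gene tested, Cyp2b13, stayed near the filter level in both groups (20.1 to 29.3 in TS-2 mice and 22.6 to 39.2 in vehicle mice) and did not pass.

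The Cyp2c genes, many of which make epoxides of arachidonic acid, moved in both directions. Of 11 members 10 were tested, and 5 were lower and 3 higher in TS-2 livers. Cyp2c54 was at 3664, 2629, 2918, 1511 and 598 in TS-2 mice, against 4227 to 8479 with a median of 6306 in vehicle mice, a 3.29-fold fall (-1.72 ± 0.28, adjusted p = 9.72e-05). Cyp2c50 was at 3090, 1485, 2426, 881 and 451 in TS-2 mice, against 3190 to 4502 with a median of 3868 in vehicle mice, a 2.90-fold fall (-1.54 ± 0.29, adjusted p = 0.000313). For both genes the TS-2 mice lay apart from the vehicle and the NTS-1 mice, with mice 4 and 5 lowest. Cyp2c68 was at 6161, 4541, 5431, 3787 and 1904 in TS-2 mice, against 5330 to 8244 in vehicle mice (-0.81 ± 0.19, adjusted p = 0.00185), and TS-2 mice 1 and 3 lay within the vehicle range. Cyp2c29, another CAR-responsive gene, was at 17600, 11694, 16103, 12627 and 6155 in TS-2 mice, against 17192 to 20004 in vehicle mice. Its change was -0.58 ± 0.16 (adjusted p = 0.00608), and -0.34 without mouse 5, when it still passed. Log2 differences of Cyp2c29 from the vehicle mean ran from -0.04 to -1.55 in TS-2 mice and from -0.07 to 0.15 in vehicle mice. The SE rests on a spread shared by the groups. Cyp2c37 passed (adjusted p = 4.97e-05) at levels close to the filter: 23.1, 11.1, 14.3, 13.1 and 13.6 in TS-2 mice and 18.9 to 44.6 in vehicle mice, of which 6 reached 32. All 5 TS-2 values lay under 32, so that the fall is at least 1.01-fold when the filter level stands in for them.

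Cyp2c39, a retinoic acid hydroxylase, rose to 2682, 4895, 922, 5973 and 3763 in TS-2 mice, against 691 to 2538 with a median of 1261 in vehicle mice. This was 2.38-fold higher (1.25 ± 0.37, adjusted p = 0.0106), with mouse 3 inside the vehicle range. Cyp2c38 was at 1723, 3153, 648, 3322 and 1653 in TS-2 mice, against 499 to 1871 in vehicle mice (0.98 ± 0.32, adjusted p = 0.0195). Again mice 2 and 4 were highest and mouse 3 low. The annotated span of Cyp2c39 covers that of Cyp2c38, and their probe sets may not be independent, which was not tested. Cyp2c55, a CAR- and PXR-inducible gene, was at 330, 769, 250, 1674 and 455 in TS-2 mice, against 134 to 374 with a median of 317 in vehicle mice (0.95 ± 0.33, adjusted p = 0.0269). The groups overlapped, and the calls of Cyp2c38 and Cyp2c55 were each lost without TS-2 mouse 2 or 4, with Cyp2c55 at 0.55 without mouse 4.

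These genes lie together on chromosome 19, in the order Cyp2c55, Cyp2c65, Cyp2c29, Cyp2c39, Cyp2c38, Cyp2c68, Cyp2c37, Cyp2c54, Cyp2c50 and Cyp2c70 from base 39006940 to base 40187286, with Cyp2c23 further on at 44005022 to 44029256. The 3 that rose are among the first 5 in this order, with Cyp2c29, which fell, between Cyp2c55 and Cyp2c39. The next 4 all fell. Cyp2c70, at the end of the run, had a change of -0.19 ± 0.09 and did not pass (adjusted p = 0.113). Cyp2c23, the gene called Cyp2c44 in older annotation, varied widely in all groups, from 1027 to 4959 in TS-2 mice and from 675 to 5773 in vehicle mice, with a 95% interval of its change from -1.07 to 1.27.

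**Figure D2:**
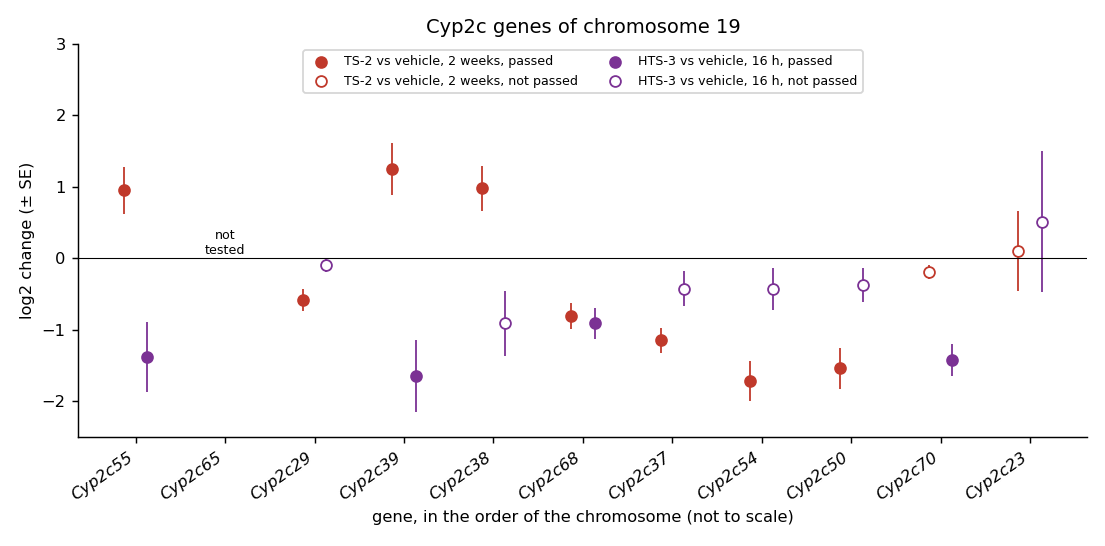
Log2 changes with standard errors of the Cyp2c genes in chromosome order (10 of 11 tested), for TS-2 against vehicle at 2 weeks and HTS-3 against vehicle at 16 h, each with its own vehicle mice; filled points passed. Cyp2c55 and Cyp2c39 lie above 0 after TS-2 and below 0 after HTS-3.

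Outside the Cyp2b, Cyp2c and Cyp3a genes, 6 members fell. Cyp2u1, a long-chain fatty acid hydroxylase, was at 505, 173, 487, 143 and 107 in TS-2 mice, against 342 to 739 with a median of 558 in vehicle mice (-1.22 ± 0.30, adjusted p = 0.00341). Cyp2r1, a vitamin D 25-hydroxylase, was at 233, 140, 191, 111 and 73.8 in TS-2 mice, against 191 to 432 in vehicle mice (2.01-fold lower, adjusted p = 0.00156). Cyp2j5, an arachidonic acid epoxygenase, was at 8382, 4726, 7869, 3236 and 3241 in TS-2 mice, against 7199 to 9062 in vehicle mice (-0.75 ± 0.18, adjusted p = 0.00242). For these 3 genes TS-2 mice 2, 4 and 5 lay below all vehicle mice, and mouse 1 lay within their range. Log2 differences of Cyp2j5 from the vehicle mean ran from -0.01 to -1.39 in TS-2 mice and from -0.23 to 0.10 in vehicle mice. Its SE, too, rests on the shared spread. Cyp2j9 fell by 0.76 on the log2 scale, with TS-2 mice at 61.9, 46.5, 55.1, 51.4 and 36.8, all below the vehicle mice at 71.3 to 111 (adjusted p = 8.16e-05). Cyp2f2, a periportal enzyme that activates naphthalene, was at 18753, 15632, 16290, 10153 and 6309 in TS-2 mice, against 16100 to 20996 in vehicle mice (-0.50 ± 0.17, adjusted p = 0.0265). The Cyp2f2 call was lost without TS-2 mouse 4 or 5. Cyp2d9, a male-predominant steroid hydroxylase, was at 18356, 11182, 18635, 7733 and 8386 in TS-2 mice, against 14897 to 16713 in vehicle mice, so that 2 TS-2 mice lay above and 3 below all vehicle mice (-0.41 ± 0.16, adjusted p = 0.0466). That call was lost without TS-2 mouse 2, 4 or 5 or without any single vehicle mouse.

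Of the Cyp3a genes, the main drug-metabolising enzyme Cyp3a11 changed little: 19299, 18097, 19274, 18119 and 18425 in TS-2 mice, against 19850 to 21505 in vehicle mice. All TS-2 mice lay below all vehicle mice, but the change was only -0.14 ± 0.05 (adjusted p = 0.0447), and the call was lost without TS-2 mouse 2, 3, 4 or 5 or without any vehicle mouse but mouse 2. Cyp3a44, a female-predominant gene, passed (lower, adjusted p = 0.0128) with all TS-2 mice and 9 of 10 vehicle mice under 32, so no size is given for it. Cyp3a25 (0.11, 95% interval -0.15 to 0.36) and Cyp3a13 (-0.24, interval -1.10 to 0.62) did not pass.

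Cyp2d22, often set beside human CYP2D6, was the only called member that was higher after both gapmers. It was at 6203, 6434, 7380, 6885 and 6768 in TS-2 mice and at 6414, 6863, 6573 and 6753 in NTS-1 mice, against 3566 to 4492 with a median of 4262 in vehicle mice. Both gapmer groups lay wholly above the vehicle mice, by 0.70 ± 0.07 for TS-2 (adjusted p = 7.92e-07) and 0.68 ± 0.07 for NTS-1 (adjusted p = 0.000193). The NTS-1 call ended with the replicate number as a block (0.65, adjusted p = 0.177). TS-2 minus NTS-1 was 0.02, with a 95% interval of -0.16 to 0.19. The second probe set of the gene rose by 0.50 with NTS-1 and passed when each probe set was tested (adjusted p = 0.0323), but differed by 0.10 with TS-2 (adjusted p = 0.534), so the 2 probe sets disagree for TS-2.

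Several members of the panel did not pass between TS-2 and vehicle, and for some the interval is narrow. Cyp2e1, which oxidises ethanol and paracetamol, was at 17965 to 21658 in TS-2 mice, against 19723 to 21266 in vehicle mice (-0.04, interval -0.15 to 0.08). Cyp2d10 differed by -0.01 (interval -0.16 to 0.14). Cyp1a2, the AhR-controlled caffeine demethylase, was at 9900, 6034, 10295, 4400 and 3600 in TS-2 mice, against 6700 to 11603 in vehicle mice (-0.44, interval -0.86 to -0.01, adjusted p = 0.102), with mice 2, 4 and 5 below the vehicle range. Of the other family 1 genes, Cyp1a1 differed by -0.19 (interval -0.43 to 0.04) and Cyp1b1 by 0.28 (interval -0.02 to 0.57). For Cyp2a12 (-0.05, interval -0.91 to 0.81) and Cyp2g1 (-0.18, interval -1.14 to 0.79) the intervals leave room for a change of over 1.5-fold in either direction.

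**Figure D3:**
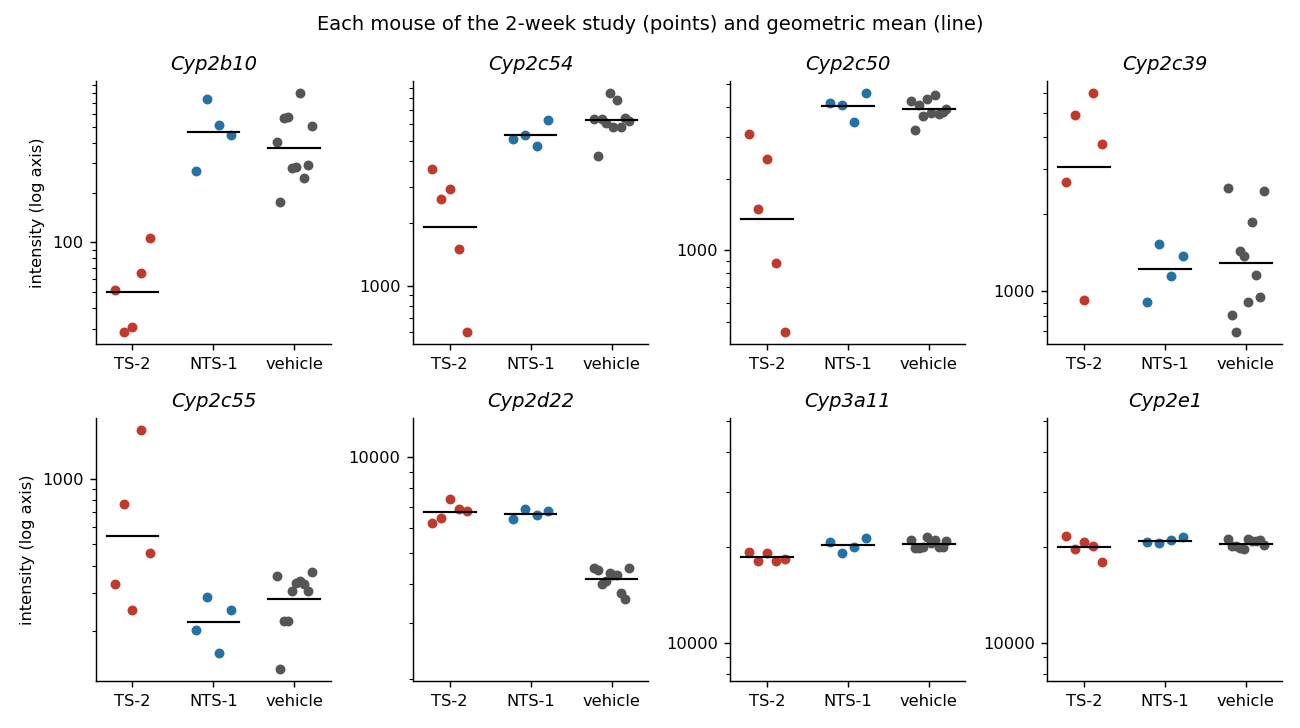
Intensity of 8 members in each mouse of the 2-week study (points, log axes) with the geometric mean of each group (line). The TS-2 mice lie below all vehicle mice for Cyp2b10, Cyp2c54, Cyp2c50 and Cyp3a11, and both gapmer groups lie above them for Cyp2d22.

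The 5 TS-2 mice did not respond alike. Of the 15 members called lower, mouse 1 lay below all 10 vehicle mice for 5 and mouse 3 for 10, while mice 2, 4 and 5 did so for 14 each. Of the 4 called higher, mouse 3 lay above all vehicle mice for 1 (Cyp2d22), mouse 1 for 2, mouse 5 for 3 and mice 2 and 4 for 4. The NTS-1 mice lay below all vehicle mice for 2 or 3 of the 15. These members were picked by their TS-2 calls against the same vehicle mice, which favours higher counts in TS-2 mice. Over all 37 members tested, TS-2 mice 1 to 5 lay below all vehicle mice for 7, 15, 12, 17 and 21. They lay above for 5, 7, 3, 7 and 5. NTS-1 mice 1 to 4 lay below for 5, 3, 3 and 4 and above for 4, 4, 5 and 10. The share over all genes was not counted. Cyp2b10 went against the order of the TS-2 mice, since mice 2 and 3 were lowest and mouse 5 highest among them. Without mouse 5, its change was -3.17, against -2.90 with it.

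**Figure D4:**
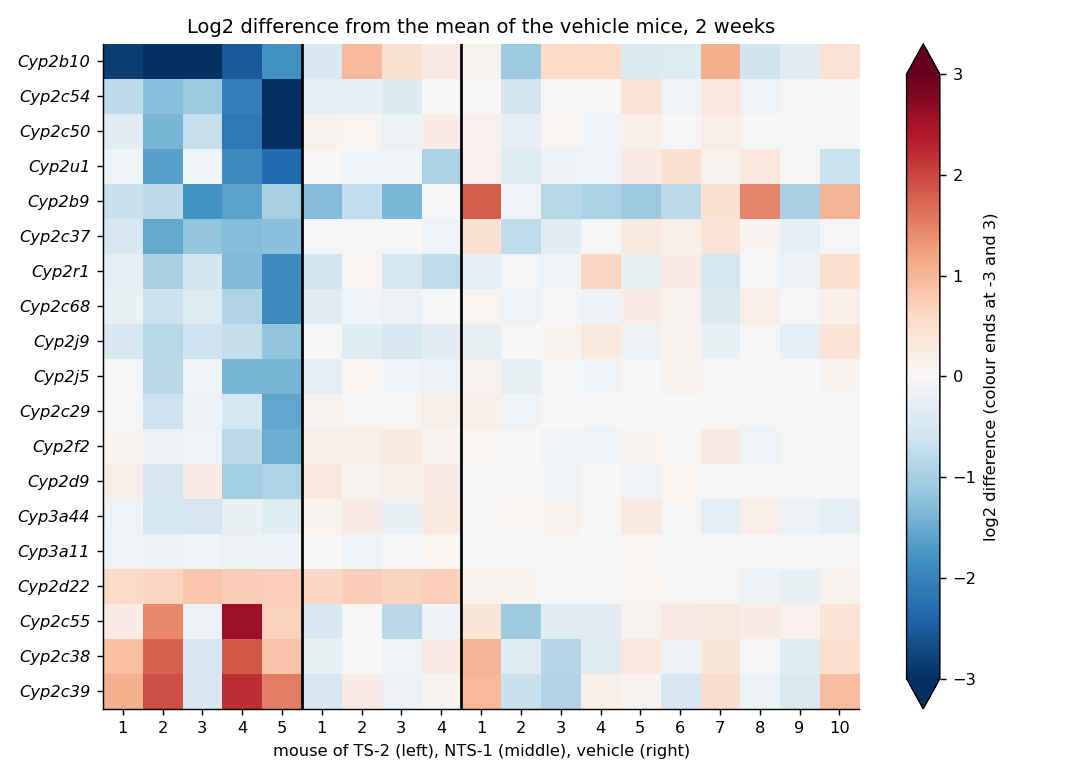
Log2 difference of each mouse of the 2-week study from the mean of the vehicle mice, for the 19 members called between TS-2 and vehicle, ordered by their change. TS-2 mice 2, 4 and 5 have the deeper colours for most genes, and the Cyp2d22 row is alike over the TS-2 and NTS-1 mice.

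TS-2 mouse 5 stood apart in transcripts of other cells and of inflammation. Its summed neutrophil markers came to 14111, against 782 to 2019 in the other TS-2 mice and 487 to 597 in vehicle mice. Its acute-phase sum was 290503, against 121923 to 136860 in vehicle mice. The lowest acute-phase sum among TS-2 mice, 140543, was also above all vehicle mice. Their median was 156221, and NTS-1 mice ranged from 127512 to 197468. Macrophage markers summed to 2655 to 18559 in TS-2 mice and 2071 to 6840 in vehicle mice. Of the listed genes tested, 2 of 10 neutrophil genes were higher and 2 lower in TS-2 livers. Higher there were 4 of 11 macrophage, 11 of 19 acute-phase, 8 of 9 interferon-stimulated and 4 of 9 stellate cell and matrix genes. Of 9 sinusoidal endothelium genes 7 were lower. Of all genes, 23.8% were called higher and 15.1% lower, and the neutrophil counts were near these shares. The part of these lists in the P450 result was not tested. Stellate cell and matrix genes summed to 6120 to 12884 in TS-2 mice and 4553 to 7602 in vehicle mice. Endothelium genes summed to 1864 to 3946 in TS-2 mice, 2648 to 3739 in NTS-1 mice and 3870 to 6751 in vehicle mice, and 4 of 9 were also lower after NTS-1. Between NTS-1 and vehicle, 5.43% of all genes were called in either direction. Without mouse 5, 15 members passed, and Cyp2b10, Cyp2c54 (-1.30) and Cyp2c50 (-1.14) were among them. In all, 13 of the 19 calls held without any single mouse of the 15: those of Cyp2b10, Cyp2c54, Cyp2c50, Cyp2u1, Cyp2c37, Cyp2r1, Cyp2c68, Cyp2j9, Cyp2j5, Cyp2c29, Cyp3a44, Cyp2c39 and Cyp2d22. Cyp3a44 reached 32 on 3 of the 19 arrays, and all TS-2 mice were under it. The filter stayed fixed when mice were left out, so it could not remove this gene.

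The regulators and partner proteins of these enzymes were followed from a list of 16 genes, 14 of them tested. In TS-2 livers 3 were higher and 2 lower, beside 23.8% of all genes called higher and 15.1% called lower. Alas1, the first enzyme of haem synthesis, was at 1863 to 4693 in TS-2 mice and 243 to 1404 in vehicle mice, without overlap (2.50 ± 0.38, adjusted p = 4.05e-05). The receptor genes moved apart: Nr1i3 (CAR) was lower (-0.52 ± 0.14, adjusted p = 0.00635), Nr1i2 (PXR) higher (0.68 ± 0.17, adjusted p = 0.0036), and Hnf4a, a master regulator of hepatocyte genes, higher (0.86 ± 0.11, adjusted p = 5.94e-06). Pgrmc1, a haem-binding partner of P450, was lower by a small amount (-0.18). Ahr did not pass (0.31, adjusted p = 0.206). Against NTS-1, 3 genes of the list were higher and 0 lower, and Nr1i3 (-0.25, adjusted p = 0.320) and Pgrmc1 (-0.11, adjusted p = 0.296) did not pass. In that comparison 14.8% of all genes were called higher and 7.13% lower.

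Targets of CAR and PXR outside the P450 genes were followed from a list. Of 9 tested, 6 were higher, 1 was lower and 2 did not pass in TS-2 livers, beside 23.8% of all genes called higher and 15.1% called lower. The efflux transporter Abcc2 was at 758 to 1597 in TS-2 mice and 236 to 573 in vehicle mice (1.29 ± 0.20), and the glutathione transferase Gstm3 rose by 1.74 ± 0.21. Abcb1a, another efflux pump, was at 33.6 to 584 in TS-2 mice and 19 to 34.8 in vehicle mice (2.05 ± 0.52), and Slco1a4, Gsta2 and Aldh1a7 also passed upwards. The carboxylesterase Ces2a fell (-1.15 ± 0.21). Of 3 AhR targets tested, Nqo1 (1.37 ± 0.28) and Nfe2l2 (1.11 ± 0.17) were higher; both also belong to the NRF2 response.

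NTS-1 was compared with the same vehicle mice at 2 weeks, so the comparisons share their controls. Of 37 members 1 passed, Cyp2d22 (2.70%), beside 5.43% of all genes tested and 2.1% called higher. Groups did not overlap for 2 members, Cyp2d22 and Cyp2d9, beside 3.21% of all genes. Cyp2d10 (0.25 ± 0.08, adjusted p = 0.059) and Cyp2g1 (adjusted p = 0.173, with all 4 NTS-1 mice under 32) came next. Cyp2b10 was 0.31 higher after NTS-1, with a 95% interval of -0.47 to 1.09.

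Set directly against NTS-1 at 2 weeks, TS-2 livers had 2 members higher and 14 lower of the 37 (43.2%), beside 22% of all genes tested, 14.8% higher and 7.13% lower. For 6 members the groups did not overlap, beside 16.5% of all genes. The 2 that were higher were Cyp2c39 (1.33 ± 0.45, adjusted p = 0.0401) and Cyp2c55 (1.31 ± 0.40, adjusted p = 0.0259). Cyp2b10 had the largest fall (-3.21 ± 0.42, adjusted p = 0.000105), followed by Cyp2c50 (-1.59 ± 0.35), Cyp2c54 (-1.48 ± 0.35) and Cyp2c37, for which only 1 of 4 NTS-1 mice reached 32. Those 4 calls held without any single mouse. Cyp3a44 was among the 14 lower, with all TS-2 mice under 32 and 2 of 4 NTS-1 mice at 32 or above. Of the 16 calls, 13 were also called against vehicle, and the 3 others were Cyp1a2 (-0.72 ± 0.25), Cyp2c70 (-0.32 ± 0.11) and Cyp2d10 (-0.26 ± 0.09). For Cyp1a2 the NTS-1 mice were at 11661, 11291, 9103 and 9560, so TS-2 mice 1 and 3 lay within their range. The count fell to 6 without NTS-1 mouse 1 or 4, to 7 without TS-2 mouse 2 or 4, and to 8 without NTS-1 mouse 3 or TS-2 mouse 5. It was 2 when the vehicle mice were left out of the estimate of the spread.

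After a single dose, only HTS-3 at 16 h moved members past the test. Of 31 members tested 5 passed against vehicle, all lower. This share, 16.1%, was near the 16.9% of all 9134 genes tested; 8.81% of all genes were called lower. For 9 members the groups did not overlap, beside 23.5% of all genes. Among the vehicle mice of 16 h, mouse 1 stood apart, with summed neutrophil markers of 37071, against 357 and 1353 in mice 2 and 3 and 312 to 580 in HTS-3 mice. When the other groups were left out of the estimate of the spread, the calls of Cyp2c70 (adjusted p = 0.110), Cyp2c68 (0.0962) and Cyp2j9 (0.0945) ended (limma), while Cyp2c39 and Cyp2c55 still passed.

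Cyp2c70, which in the mouse makes muricholic acids from chenodeoxycholic acid, had the smallest adjusted p of the 5 when all groups shared the spread. HTS-3 mice were at 16290, 5452, 17607 and 12022, against 29543, 36382 and 29046 in vehicle mice. The groups lay apart, HTS-3 mouse 2 was lowest, and the change was -1.43 ± 0.22 (2.69-fold lower, adjusted p = 2.29e-05), or -1.47 without vehicle mouse 1. The other gapmers at 16 h did not share it: TS-2 mice were at 33113, 27189 and 33235 and NTS-1 mice at 32130, 39388, 37438 and 33331. HTS-3 minus TS-2 was -1.41 ± 0.22 (adjusted p = 2.8e-05) and HTS-3 minus NTS-1 was -1.60 ± 0.21 (adjusted p = 9.6e-07). With the compared groups only, the calls against TS-2 ended for Cyp2c70 (adjusted p = 0.110) and Cyp2j9 (adjusted p = 0.0820). At 8 h HTS-3 mice were at 23123, 27343 and 23569, against 30532, 30534 and 35244 in vehicle mice, and the 16 h effect minus the 8 h effect was -1.05 ± 0.33, which did not pass (adjusted p = 0.0739).

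Cyp2c68 was at 9736, 9422, 13492 and 12644 in HTS-3 mice, against 15874, 29330 and 19990 in vehicle mice at 16 h (-0.91 ± 0.22, adjusted p = 0.00355). The groups lay apart, and the change was -0.67 (adjusted p = 0.0506) without vehicle mouse 2, the highest. Against NTS-1 it was -1.03 ± 0.20 (adjusted p = 0.00036) and against TS-2 -0.92 ± 0.22 (adjusted p = 0.0035), and both calls held without any single mouse. Cyp2j9 also passed in all 3 comparisons at levels next to the filter, with HTS-3 mice at 12.5 to 25.8 and vehicle mice at 33.5 to 49.0, a fall of at least 1.28-fold. The same value, 33.5, was deposited for Cyp2j9 on 11 of the 37 single-dose arrays.

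Cyp2c39 was at 835, 1429, 827 and 1231 in HTS-3 mice, against 3903, 3448 and 2605 in vehicle mice at 16 h (-1.64 ± 0.50, adjusted p = 0.0236). Cyp2c55 was at 205, 269, 212 and 271 in HTS-3 mice, against 850, 567 and 493 in vehicle mice (-1.39 ± 0.49, adjusted p = 0.0497). Both genes had no overlap between groups, yet the Cyp2c39 call needed HTS-3 mouse 1 and vehicle mice 1 and 2, and was lost when any of them was left out, and the Cyp2c55 call without any 1 of the 7 mice. At 16 h, TS-2 mice 1, 2 and 3 also lay below all vehicle mice for Cyp2c55, and TS-2 mice 1 and 3 for Cyp2c39. NTS-1 mice 1, 2 and 4 did so for Cyp2c39. For Cyp2c55, NTS-1 mice 2 and 4 lay below and mouse 3 above all vehicle mice. Neither gene passed between HTS-3 and either other gapmer at 16 h. Cyp2c39 and Cyp2c55 were among the 4 members that rose after TS-2 for 2 weeks. The other two, Cyp2c38 and Cyp2d22, did not pass after HTS-3, the studies have different vehicle mice, and the difference was not tested. Beside these falls, 4 of 7 sinusoidal endothelium genes, 2 of 9 macrophage genes and 1 of 4 neutrophil genes were lower in HTS-3 livers, and their part was not tested. Of all genes, 8.81% were called lower. Vehicle mouse 1 of 16 h, with summed neutrophil markers of 37071, was among the controls of these counts. Neutrophil genes Mpo, Ngp, Camp, Ltf, Elane, Cxcr2 and Prtn3 were under 32 in all HTS-3 mice. Macrophage markers summed to 9603 to 13474 in HTS-3 mice and 11639 to 34658 in vehicle mice. Hepatocyte markers summed to 681131 to 784690 in HTS-3 mice and 669116 to 745907 in vehicle mice, and none of 12 tested passed.

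**Figure D5:**
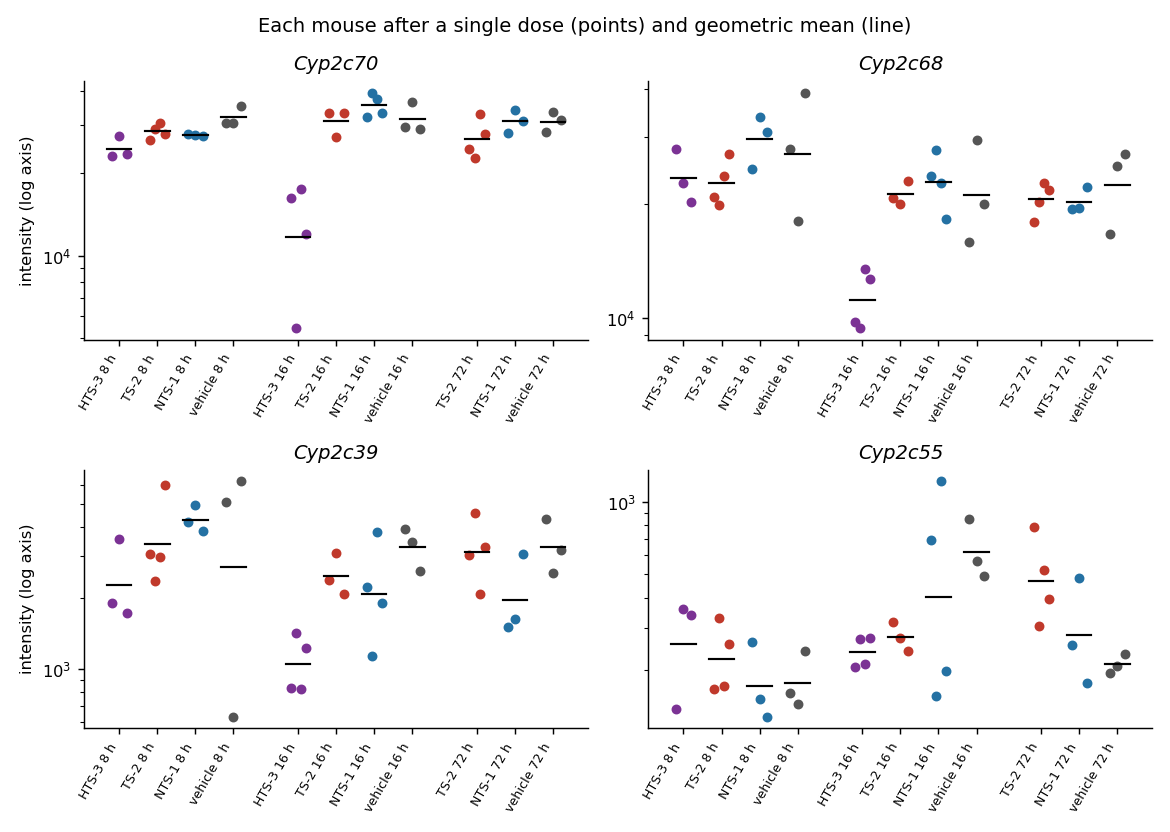
Intensity of 4 Cyp2c genes in each mouse of the single-dose study (points, log axes) with the geometric mean of each group (line), by time. For Cyp2c70 and Cyp2c68 the 4 HTS-3 mice of 16 h lie below the mice of every other group of that time.

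Cyp2b10 did not pass after HTS-3 at 16 h, where mice were at 761, 1311, 887 and 820, against 2167, 1700 and 3245 in vehicle mice without overlap. Its level in vehicle mice was 310 to 682 at 8 h, 1700 to 3245 at 16 h and 416 to 950 at 72 h. After TS-2 the mice were at 231 to 1316 at 8 h, 437 to 2384 at 16 h and 336 to 865 at 72 h, overlapping the vehicle mice at each time, so the separation seen at 2 weeks was not seen after 1 dose. Cyp2e1 lay between 42047 and 54431 and Cyp3a11 between 22500 and 31705 over all 37 single-dose mice.

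No member passed in the other comparisons after a single dose, where few genes of any kind did. Against vehicle, 0 members were called and 0 to 2 had an unadjusted p under 0.05 (limma): 0 for NTS-1 at 8 h (0.876% of all genes called) and 16 h (0.263%), 2 at 72 h (0%), 0 for TS-2 at 8 h (0%), 2 at 16 h (0.0109%), 1 at 72 h (0.241%), and 1 for HTS-3 at 8 h (0.887%). The members with the smallest p after NTS-1 were Cyp2d12 (0.48), Cyp2g1 (1.51) and Cyp3a13 (0.86) at 8 h, Cyp2b9 (-1.53), Cyp2j9 (-0.40) and Cyp2u1 (0.44) at 16 h, and Cyp2b9, Cyp3a25 (-0.38) and Cyp2j6 (-0.43) at 72 h, all at an adjusted p of 1. After TS-2 they were Cyp2a12 (-1.08), Cyp2c68 (-0.25) and Cyp2c23 (1.14) at 8 h, Cyp2b9 (adjusted p = 0.862), Cyp2c55 (-1.18) and Cyp2g1 at 16 h, and Cyp2c55 (1.16), Cyp2f2 (-0.26) and Cyp3a11 (-0.15) at 72 h. No size is given for a gene with 1 group wholly under 32. After HTS-3 at 8 h they were Cyp3a44 (0.57, adjusted p = 0.286), Cyp2r1 (-0.61) and Cyp2b9 (-1.59). NTS-1 is the gapmer after which 9 of 9 tested interferon-stimulated genes were higher at 8 h (median log2 change 5.70) and 8 of 9 at 16 h, beside 0 members in either direction.

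Between gapmers after a single dose, HTS-3 at 16 h was again the group that moved. Against NTS-1 at 16 h, 3 of 31 members were lower (9.68%), beside 21.4% of all genes called and 9.72% called lower, and against TS-2 at 16 h 3 were lower, beside 13% called and 8.38% called lower; both trios were Cyp2c70, Cyp2c68 and Cyp2j9. Groups did not overlap for 4 members in each, beside 21.1% of all genes against NTS-1 and 22.8% against TS-2. The Cyp2j9 call against NTS-1 (adjusted p = 0.0369), with all HTS-3 mice and 2 of 4 NTS-1 mice under 32, was lost without HTS-3 mouse 1 or 4 or NTS-1 mouse 1, 3 or 4. The other between-gapmer comparisons called 0 members, with 0 to 2 members at an unadjusted p under 0.05 (limma). Of all genes, 0.865%, 0.493% and 0.263% were called for TS-2 against NTS-1 at 8 h, 16 h and 72 h, 1.16% for HTS-3 against NTS-1 at 8 h and 0.526% for HTS-3 against TS-2 at 8 h. Their smallest p values belonged to Cyp2g1 (-2.56), Cyp2a12 (-1.47) and Cyp2c68 (-0.38) for TS-2 against NTS-1 at 8 h, to Cyp2j9 (0.44), Cyp2b9 and Cyp2u1 (-0.39) at 16 h, and to Cyp3a25 (0.30), Cyp2g1 and Cyp3a11 (-0.17) at 72 h. At 8 h they belonged to Cyp2b9 (-1.87), Cyp3a44 (0.43) and Cyp2c39 (-0.92) for HTS-3 against NTS-1, and to Cyp3a44 (0.67), Cyp2r1 (-0.70) and Cyp2j9 (-0.41) for HTS-3 against TS-2.

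The change of an effect with time was tested for HTS-3 and TS-2. For HTS-3, the 16 h effect minus the 8 h effect called 0 members, beside 3.23% of all genes, with 5 members at an unadjusted p under 0.05 (limma). Cyp2c55 (-1.92 ± 0.72, adjusted p = 0.161) and Cyp2j9 (adjusted p = 0.248) followed Cyp2c70. For TS-2, the 72 h effect minus the 8 h effect called 0 members, beside 0.0766% of all genes, with 0 members at an unadjusted p under 0.05 (limma); Cyp2g1, Cyp2c55 (0.84 ± 0.69) and Cyp2d9 (-0.24 ± 0.21) had the smallest p values.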

How the data were processed

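Livers of 56 mice were profiled on Affymetrix arrays with 45101 probe sets, 1 array a mouse. The deposited values came from RMA per the submitters' processing notes, and no version of it is given in the sources used. They are intensity values on a linear scale, already normalized by the authors; log2 was taken before any test. The number of arrays limits the precision. Probe sets were named by the platform annotation; 34958 had 1 gene, 932 several and 9211 none. The members and gene lists were chosen with earlier results of these data known.

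For each gene the probe set with the highest mean log2 intensity over all 56 arrays was taken. Genes at an intensity of 32 or more on at least 3 arrays of a study entered limma 3.58.1 (R 4.3.3), with the 37 single-dose and the 19 2-week arrays fitted apart and a shared spread within each. P-values were adjusted by Benjamini-Hochberg over all genes tested, with a threshold of 0.05, and intervals are at 95%. Whether mice of a group shared a cage or batch is not given, so p-values measure the spread between these mice. No fit gave each group its own spread. Where TS-2 mice spread more than vehicle mice, the SE and p of a change may therefore be too small. Named with values were a fixed panel, up to 10 members past the test in each direction and, where none passed, the 3 members with the smallest p; Cyp3a44 at 2 weeks was added after its values were seen, to account for every call. Checked on simulated data with 200 changed genes and the spread of the 2-week study, the fit recovered 90% of 2-fold and 99% of 4-fold changes between TS-2 and vehicle, and with that of the single-dose study 60% and 86% between HTS-3 and vehicle at 16 h.

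Replicate numbers were not used as pairs in the main fit. In no comparison did every same-numbered pair of mice deviate together with a correlation over 0.1. TS-2 against vehicle at 8 h came close, at 0.095, 0.242 and 0.414, so this cut-off cannot show that the mice were unpaired. Other settings were averaged probe sets for each gene, each probe set tested alone (added after seeing the data), a filter at the 40th percentile or none, quantile normalization, the compared groups alone, array weights, the replicate number as a block, the Actb 3'/5' ratio as a covariate, each set of 5 vehicle mice at 2 weeks, the doubtful HTS-3 mouse at 16 h, and each mouse left out. Left out of the members were 2 probe sets with several genes and 2 of the pseudogene Cyp2d13.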

Additional observations from a re-analysis of the deposited data

Results flagged for a closer look

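In groups of 4 to 10 mice, Dixon's test marked 3 vehicle values of the 2-week study as far from the rest of their group. The test marks about 1 in 20 groups by chance. The number of groups read was not counted, so the 3 marks cannot be told apart from chance marks. Vehicle mouse 2 was low for Cyp2j5 (7199, the others 8030 to 9062) and for Cyp2c55 (134, the others 223 to 374). Vehicle mouse 1 was high for Cyp2c29 (20004, the others 17192 to 18494).

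In 6 cases all mice of the first group lay on the same side of the second group's mean at 2 weeks and on the opposite side after a single dose. The search began from called members and read every other time of the same comparison. All mice of a small group can lie on the same side by chance, and the number of cases read was not counted. None of the 6 single-dose changes passed (limma, smallest adjusted p = 0.814). The difference was not tested, and the studies share no mice. Cyp2d22 after NTS-1 against vehicle was 0.68 at 2 weeks and -0.21 at 8 h. For TS-2 against NTS-1 at 2 weeks, Cyp2d10 was -0.26 (0.06 at 16 h), Cyp2c50 -1.59 (0.23 at 72 h), Cyp2c54 -1.48 (0.55 at 72 h), Cyp2c55 1.31 (-0.55 at 16 h) and Cyp2j9 -0.47 (0.44 at 16 h).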

How the results depend on the processing

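Over 950 values of 47 called gene results under the other settings, the direction never turned, 744 kept their call and 206 lost it. The 2-week TS-2 against vehicle count of 19 was 14 with the replicate block and 11 with vehicle mice 6 to 10 alone, and 14 to 21 with single mice left out; 10 of its calls held under the 10 other settings that use 1 value per gene and without any mouse, those of Cyp2b10, Cyp2c54, Cyp2c50, Cyp2u1, Cyp2r1, Cyp2c68, Cyp2c37, Cyp2j9, Cyp2j5 and Cyp2d22, although the second Cyp2d22 probe set did not pass when each was tested. TS-2 against NTS-1 at 2 weeks (16) gave 2 with the compared groups only, 4 with the replicate block and 6 to 19 with single mice left out. NTS-1 against vehicle at 2 weeks (1) gave 2 with the mean of probe sets, the compared groups only or array weights, 0 with the replicate block, which ended the Cyp2d22 call, and 1 to 3 with single mice left out. HTS-3 against vehicle at 16 h (5) gave 3 with the 40th percentile filter or no filter, 2 with the compared groups only, and 2 to 5 with single mice left out: 2 without vehicle mouse 2 and 3 without HTS-3 mouse 1. HTS-3 against NTS-1 at 16 h (3) gave 6 with the Actb covariate and 2 to 4 with single mice left out. Where no member was called, TS-2 against vehicle at 16 h gave 1 with array weights, and the HTS-3 effect at 16 h minus that at 8 h gave 1 with the Actb covariate and 0 to 1 with single mice left out. HTS-3 against vehicle and against TS-2 at 8 h each gave 0 to 1 with single mice left out. The cause of these moves was not tested. None of the settings gave each group its own spread for a gene, so a call kept under all of them still rests on the shared spread. Intensities near 32 limit what Cyp2c37, Cyp2j9 and Cyp3a44 can show.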

Other observations

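Of 18 P450 genes tested outside families 1 to 3, 5 were lower and 0 higher in TS-2 livers than in vehicle livers at 2 weeks, beside 15.1% of all genes called lower and 23.8% called higher. Against NTS-1, 6 were lower and 1 higher, beside 7.13% of all genes called lower and 14.8% called higher. Cyp8b1, which makes the cholic acid branch of bile acids, was at 56.8 to 4980 in TS-2 mice and 4090 to 7561 in vehicle mice (-2.66 ± 0.67, adjusted p = 0.00382). Cyp7a1, the rate-limiting enzyme of bile acid synthesis, fell by 1.61 on the log2 scale, the retinoic acid hydroxylase Cyp26a1 by 1.45, the cholesterol 24-hydroxylase Cyp46a1 by 1.72 and Cyp4b1 by 1.39.

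Among 26 conjugating and other drug-handling enzymes tested, 11 were lower and 5 higher in TS-2 livers than in vehicle livers at 2 weeks. Of all genes, 15.1% were called lower and 23.8% higher. The glucuronosyltransferases Ugt2b38 (-2.24 ± 0.61) and Ugt2a3 (-1.55 ± 0.24) and the acetyltransferase Nat2 (-0.99 ± 0.13) fell, while the flavin monooxygenase Fmo5 (1.52 ± 0.21), the thiopurine methyltransferase Tpmt (1.00 ± 0.24) and the epoxide hydrolase Ephx1 (0.92 ± 0.11) rose. Of 6 male-predominant genes tested 4 were lower, among them Elovl3 (-2.69 ± 0.78) and Slco1a1 (-1.72 ± 0.39), beside the same 15.1% of all genes. The female-predominant Cyp2b9 and Cyp3a44 were also called lower.

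Probe sets that name no single member were also read. Both probe sets of the pseudogene Cyp2d13 fell after TS-2 for 2 weeks (-1.16 and -1.45, adjusted p = 0.0235 and 0.00887 when each probe set was tested). The probe set shared by Cyp2a5 and Cyp2a4 ranged from 274 to 12983 in TS-2 mice and from 502 to 6068 in vehicle mice and did not pass (0.54, adjusted p = 0.639).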
